A study of Mus musculus with 46 samples.

Results

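The 40 genes described here are factors that make ribosomes, taken by gene symbol from a list of names, with no measured value in the rule, out of 24537 listed genes in experiments 1 and 3 and 25124 in experiments 2 and 4. The names were chosen with earlier results of these data known. All 40 were listed, and all 40 passed the filter on low values in each of the 4 experiments, where 11531, 11798, 11044 and 11549 genes were tested. The cells were mouse bone marrow-derived macrophages (BMDMs), stimulated with lipid A, the part of bacterial lipopolysaccharide (LPS) that the receptor TLR4 recognises, or with LPS itself, and their polyadenylated RNA was sequenced. The series asks what SWI/SNF complexes, the ATP-driven chromatin remodellers, do in this response.

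In experiment 1, WT cells had lipid A for 0, 1 or 4 hr, and further cells had ACBI1, BRM014 or BRDK98 with lipid A for 4 hr. Experiment 2 set Arid1a f/f cells (LPS for 0, 1 or 4 hr) against Arid1a-/- cells (LPS for 1 or 4 hr). Its 1 hr libraries were listed apart from its 0 and 4 hr libraries, under another title format. Whether they were a separate batch is not stated, so between 1 hr and the other times, time and a possible batch cannot be told apart. Experiment 3 set Pbrm1 f/f cells (lipid A for 0 or 4 hr) against Pbrm1-/- cells (lipid A for 4 hr). Experiment 4 used lipid A for 0, 20 or 60 min in WT cells, and each of the 3 compounds with lipid A for 20 or 60 min. ACBI1 causes the degradation of PBRM1 and of the 2 alternative ATPases of SWI/SNF, SMARCA2 and SMARCA4. BRM014 inhibits both of these ATPases, and of BRDK98 only the code name is used. The labels give no dose or duration of a compound, no vehicle for the control cells, no Cre driver for the deletions, and nothing on the origin of replicates (cultures or animals), so p-values measure only the spread between these libraries, which may be technical. Unstimulated cells with a perturbation are not analysed here. Each of the 23 groups had 2 libraries except the 4 hr control of experiment 1, where n = 1 because replicate 2 is not analysed here (its column repeats replicate 1 in all 24537 genes). That lone library was assumed to vary like the other groups.

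Ribosome production starts in the nucleolus, where RNA polymerase I copies the ribosomal DNA into a long precursor. Small nucleolar ribonucleoprotein particles (snoRNPs) guide the modification of this precursor, box C/D particles by methylation and box H/ACA particles by pseudouridylation, and assembly factors then fold, cut and pack it into the small and large subunits. Many of these factors are known targets of the transcription factor MYC, and macrophages activated through TLR4 change their protein synthesis early. The 40 members fall into 6 roles: 6 belong to the Pol I transcription machinery, 3 are box C/D and 4 box H/ACA snoRNP proteins, 6 are nucleolar chaperones and regulators, 11 serve the small subunit and 10 the large.

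Values are TPM, the usual transcript abundance unit, which are per length, so levels can be compared between genes, though only roughly. The libraries did not share a common total: the listed genes summed to 526363.7 to 658439.9 TPM. Changes are differences of log2(TPM + 1) with their standard error, written ±, from limma, with p-values adjusted by the Benjamini-Hochberg method over all tested genes. A change was called, and is described as a rise or fall, where the adjusted p was under 0.05 with the same sign on deposited TPM and again after each library had been scaled by its median-ratio factor. The second scale matters because stimulation moved the median of all tested genes: by -0.84 at 4 hr in experiment 1 and by -0.33 at 60 min in experiment 4, on the deposited scale. Unless a sentence says otherwise, a change is on the deposited scale.

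Libraries held 7015079 to 27527085 exonic reads, at which 3 reads on a 2 kb transcript correspond to 0.0654 to 0.2978 TPM. All 8 macrophage markers were at 1 TPM or more in every library. Arid1a itself read 7.17 and 13.2 TPM in Arid1a-/- libraries against 18.3 and 17.3 in f/f libraries at 1 hr (called lower), and 25.4 and 26.1 against 35.2 and 41.9 at 4 hr (adjusted p = 0.0838 as deposited and 0.0311 scaled, not called). Pbrm1 read 4.54 and 5.03 TPM in Pbrm1-/- against 15.6 and 14.7 in f/f libraries (adjusted p = 0.0265 as deposited and 0.104 scaled, not called). The labels do not give the deleted exons, and these values sum over whole genes. At 1 hr, replicate 1 of Arid1a-/- read lower than replicate 2 in other long genes too, such as Pbrm1 (13.0 and 19.9 TPM) and Mdn1 (1.93 and 4.22). Some short genes went the other way, such as Nhp2 (118 and 93.7), but not all, as with Fbl (4.00 and 8.02). The part of transcript length in the Arid1a values was not tested. Replicate 1 of the 1 hr control in experiment 1 stood apart with 142.69 TPM of 5 summed stromal markers (3 of them at 1 TPM or more), against at most 0.14 in the other libraries of that experiment. The 6 neutrophil markers summed to 4.44 to 41.25 TPM in experiments 1 and 2 and to 222.77 to 430.4 in experiments 3 and 4, with 2 to 5 of them at 1 TPM or more. In the resting libraries of experiment 3 most of the sum was S100a8 (163 and 134 TPM) and S100a9 (155 and 163). Another of these markers, Ly6g, read 0.143 and 0.224 there and 0 in every library of experiment 2. The sums given below are thus not a measure of neutrophil content. Each experiment was fitted on its own, and changes were computed within it.

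Promoters are printed for 5 members picked by hand, not by a ranking, from the responses in the sections that follow. Wdr43 rose late in every 4 hr series. At 60 min Nop2 and Nop56 rose most with BRM014, and Nop58 and Nhp2 with BRDK98 (at 4 hr the order differed). Sequences are from RefSeq on GRCm38.p6, cover 250 bases before to 50 after the annotated start, and run 5′ to 3′ on the gene's strand, which is plus for all 5. Capitals mark matches to the E-box CACGTG, the letters MYC binds best, and to CGGAAG, 1 form of the ETS motif. Both strands were searched (CGGAAG reads CTTCCG on the other strand). Other forms of the ETS motif were not searched, marked or counted. They lie at chr17:71615965-71616264 (Wdr43), chr6:125131633-125131932 (Nop2), chr2:130274162-130274461 (Nop56), chr1:59684756-59685055 (Nop58) and chr11:51619523-51619822 (Nhp2).
Wdr43: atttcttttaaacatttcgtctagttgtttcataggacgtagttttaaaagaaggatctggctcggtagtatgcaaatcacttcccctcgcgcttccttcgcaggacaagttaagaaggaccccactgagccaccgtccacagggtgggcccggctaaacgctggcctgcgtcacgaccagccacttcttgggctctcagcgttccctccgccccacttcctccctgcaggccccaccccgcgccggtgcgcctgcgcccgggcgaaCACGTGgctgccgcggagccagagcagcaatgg
Nop2: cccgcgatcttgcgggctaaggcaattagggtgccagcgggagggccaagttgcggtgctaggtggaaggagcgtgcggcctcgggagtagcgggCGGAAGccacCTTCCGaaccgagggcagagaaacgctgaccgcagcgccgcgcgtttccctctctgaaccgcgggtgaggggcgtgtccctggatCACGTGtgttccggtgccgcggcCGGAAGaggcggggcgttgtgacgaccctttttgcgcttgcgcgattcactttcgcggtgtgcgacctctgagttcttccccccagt
Nop56: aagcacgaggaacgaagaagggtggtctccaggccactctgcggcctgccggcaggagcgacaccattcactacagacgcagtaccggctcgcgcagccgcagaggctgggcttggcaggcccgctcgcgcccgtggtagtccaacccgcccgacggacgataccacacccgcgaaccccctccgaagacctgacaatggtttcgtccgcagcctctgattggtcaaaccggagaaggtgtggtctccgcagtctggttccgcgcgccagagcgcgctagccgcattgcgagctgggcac
Nop58: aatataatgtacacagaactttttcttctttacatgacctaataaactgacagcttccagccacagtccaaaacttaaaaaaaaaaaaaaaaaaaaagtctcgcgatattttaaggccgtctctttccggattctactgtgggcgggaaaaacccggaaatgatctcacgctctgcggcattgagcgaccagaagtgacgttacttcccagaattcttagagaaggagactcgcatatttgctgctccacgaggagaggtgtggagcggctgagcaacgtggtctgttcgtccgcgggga
Nhp2: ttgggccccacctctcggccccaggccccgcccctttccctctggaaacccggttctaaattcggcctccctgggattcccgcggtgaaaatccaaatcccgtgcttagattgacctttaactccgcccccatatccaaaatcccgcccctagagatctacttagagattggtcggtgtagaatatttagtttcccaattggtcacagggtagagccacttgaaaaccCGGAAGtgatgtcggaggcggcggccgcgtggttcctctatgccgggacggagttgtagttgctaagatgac
The Wdr43 stretch holds 1 E-box, the Nop2 stretch 1 E-box and 3 CGGAAG matches, the Nhp2 stretch 1 CGGAAG match, and the Nop56 and Nop58 stretches neither. Of the 40 members, 35 had a promoter in the table. An E-box stood in the promoters of 8 of these 35 (22.9%), against 8.09% of 27025 genes, and CGGAAG in 19 (54.3%), against 18.8%. The letters GCGCATG, a part of the motif of the factor NRF1, stood in 3 (8.57%), against 4.41%. The 27025 genes are more than were tested here, whereas all members passed the filter on low values. Shares among tested genes alone were not computed. These matches are descriptions of letters in a window, not sites shown to be bound.

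At rest, over the 8 unstimulated libraries of 4 separately normalized tables, the most abundant member was Npm1, the histone chaperone nucleophosmin, at a median of 64.1 TPM (52.5 to 80.2). Ncl, the RNA-binding nucleolar protein nucleolin, followed at 56.8 (47.0 to 69.4), and Nop10, the smallest H/ACA protein, at 49.3 (33.1 to 63.3). The ranges of these neighbours overlapped. Rrp12 (2.29, 1.85 to 2.79), a factor for export of both subunits, and Polr1e (1.19, 1.01 to 1.61), a Pol I subunit, stood lowest, and their ranges did not overlap. Partners in 1 complex were not equally abundant: of the 3 box C/D proteins, Nop56 and Nop58 had medians of 10.7 and 10.3 TPM and the methyltransferase Fbl 4.31, and of the PeBoW complex, which matures the large subunit, Pes1 had 26.8, Bop1 17.5 and Wdr12 4.08.

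The early response to stimulus moved few members, and not all in one direction. After 1 hr of lipid A in experiment 1, 5 of 40 members rose and 4 fell, against 9.9% and 22.3% of all tested genes. On TPM as deposited alone the split was 5 and 19, on scaled TPM alone 9 and 4. After 1 hr of LPS in Arid1a f/f cells, 7 rose and 3 fell, against 13.6% and 21.6% of all genes (deposited alone 7 and 9, scaled alone 8 and 3). The LPS count fell from 10 to 6 without replicate 1 or replicate 2 of the 1 hr control. In experiment 4, 20 min of lipid A gave no called member with limma, against 0.736% and 0.364% of all genes: 2 members had an unadjusted p under 0.05 and limma voom on recovered reads called 0. By 60 min 3 had risen and 8 fallen, against 7.47% and 19.1% (deposited alone 3 and 23, scaled alone 8 and 8), and 6 in all were called without replicate 1 of the 60 min control. Between 20 and 60 min, 2 rose and 9 fell, against 7.34% and 16.8% (deposited alone 2 and 25, scaled alone 5 and 9), with 7 called without replicate 1 of either control group. The authors' deposited table listed, at an adjusted p under 0.05, 6 higher and 2 lower at 1 hr in experiment 1 (7.06% and 4.95% of all listed genes), 7 and 1 in experiment 2 (9.75% and 9.88%) and 5 and 0 at 60 min in experiment 4 (6.74% and 6.24%), so that falls were fewer there than in the limma counts for each. Neutrophil markers summed to 7.17 and 8.77 TPM at rest, 21.6 and 22.03 at 1 hr and 23.86 and 15.33 at 4 hr of LPS in experiment 2. In experiment 4 they summed to 273.18 and 259.25 at rest and 355.27 and 369.41 at 60 min; their part in the changes was not tested. In bulk RNA, fewer cells of a type and less RNA per cell cannot be told apart.

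The 2 members higher at 1 hr or 60 min in experiments 1, 2 and 4 alike were Ltv1, an assembly factor that rides on the small subunit to the cytoplasm, and Nop58, a core box C/D protein. Ltv1 read 19.4 and 19.1 TPM at 1 hr of LPS against 11.3 and 10.5 at rest (0.77 ± 0.09, adjusted p = 1.02e-04), and 22.8 and 21.9 at 60 min of lipid A against 13.7 and 14.6 (0.62 ± 0.09, adjusted p = 4.16e-05). Stimulated and resting libraries did not overlap in either experiment. Nop58 read 18.6 and 18.2 TPM against 9.38 and 9.28 with LPS (0.91 ± 0.10, adjusted p = 4.92e-05) and 23.4 and 14.0 against 11.0 and 8.74 in experiment 1 (0.82 ± 0.23, adjusted p = 0.0128). In experiment 1 its call was lost without the library high in stromal markers, where the log2 change was 0.47, and without resting replicate 2 (0.67), and in experiment 4 it was lost without replicate 2 of the 60 min control (0.28). The part of the stromal RNA in this result was not tested.

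The largest early rise with LPS was that of Rrs1, a factor that helps place the smallest ribosomal RNA in the large subunit. It read 23.0 and 21.5 TPM at 1 hr against 4.57 and 4.69 at rest, 4.81-fold by the means (2.05 ± 0.12, adjusted p = 8.07e-07). In experiment 1 the libraries read 11.3 and 11.2 against 8.45 and 7.98 (0.41 ± 0.12, adjusted p = 0.0153), a call lost without either 1 hr library or resting replicate 2. Nhp2 is an H/ACA protein that contacts the guide RNA. With LPS it read 51.2 and 53.8 TPM against 30.5 and 27.2 (0.85 ± 0.11, adjusted p = 1.95e-04). In experiment 4 it read 41.7 and 41.2 against 25.2 and 27.0 (0.65 ± 0.12, adjusted p = 3.89e-04). All 4 stimulated libraries exceeded the resting ones.

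Falls at 1 hr or 60 min differed between experiments, and no member fell in all 3. Heatr1, a large scaffold of the early small-subunit processome, read 5.16 and 4.71 TPM against 10.3 and 10.4 in experiment 1 (-0.94 ± 0.12, adjusted p = 8.47e-05). Nob1, the endonuclease that makes the final cut in small-subunit RNA, read 4.76 and 5.87 TPM against 12.2 and 11.3 with LPS (-1.02 ± 0.13, adjusted p = 1.50e-04). Nolc1, a chaperone of snoRNPs, read 5.87 and 6.0 TPM against 9.61 and 10.5 in experiment 4 (-0.67 ± 0.08, adjusted p = 8.53e-06). None of the stimulated libraries overlapped the resting ones in these 3 cases.

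**Figure D1:**
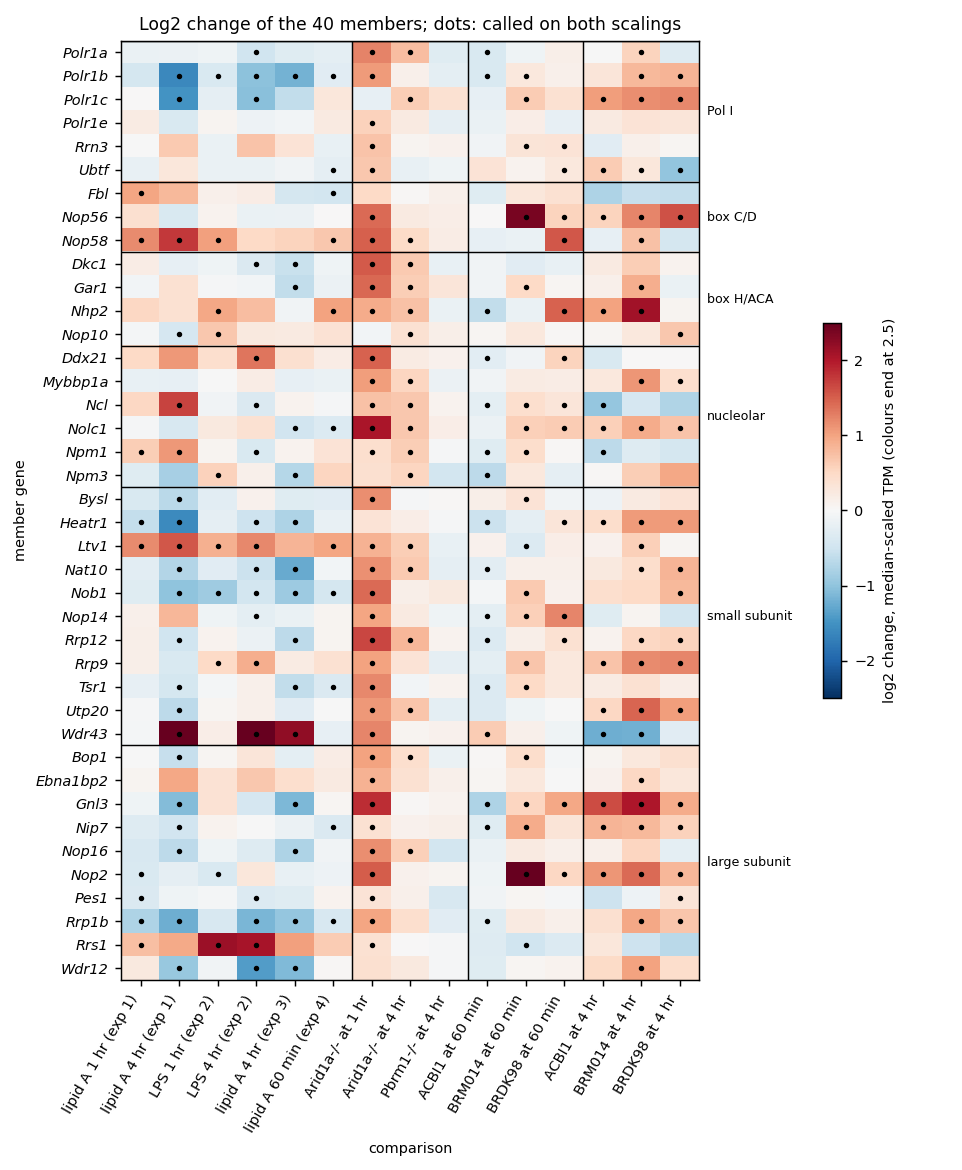
Log2 change on median-scaled TPM of the 40 members (rows of the picture, grouped by role) in 15 comparisons (columns), colours ending at 2.5 in either direction; dots mark changes called on both scalings. The column for Arid1a-/- at 1 hr is called higher in 34 of 40 members, and that for Pbrm1-/- in none.

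By 4 hr falls outnumbered rises among the members in all 3 experiments that had this time, on the deposited TPM and on scaled TPM, but not in the authors' own comparisons. Lipid A raised 5 and lowered 16 of 40 in experiment 1, against 20.1% and 43.2% of all tested genes (deposited alone 5 and 27, scaled alone 13 and 16). LPS raised 5 and lowered 13 in Arid1a f/f cells, against 17.9% and 39% (deposited alone 5 and 26, scaled alone 12 and 13). In Pbrm1 f/f cells lipid A raised 1 and lowered 14, against 16% and 37% (deposited alone 1 and 30, scaled alone 6 and 14), and without replicate 1 or replicate 2 of its 0 hr control 6 in all were called. From 1 to 4 hr, 3 rose and 13 fell in experiment 1, against 22.7% and 39.2% (deposited alone 3 and 22, scaled alone 8 and 13). The same step in experiment 2 had 3 up and 12 down, against 17.7% and 35.8% (deposited alone 3 and 24, scaled alone 8 and 12). The median change of the members at 4 hr was -0.92, -0.49 and -0.81 in experiments 1, 2 and 3, beside -0.84, -0.63 and -0.75 over all tested genes. The share of members called lay below that of all tested genes in both directions in each experiment. The authors' deposited table listed 12 members higher and 8 lower at 4 hr in experiment 1 (17.2% and 15.0% of all listed genes), 12 and 7 in experiment 2 (16.2% and 14.1%) and 7 and 7 in experiment 3 (14.3% and 11.53%), with median log2 changes of -0.17, 0.12 and -0.07. The direction of the group's balance at 4 hr thus differed between these sources.

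Wdr43, a subunit of the complex that couples ribosomal DNA transcription to early small-subunit processing, was the single member higher at 4 hr in all 3 experiments. It read 91.4 TPM at 4 hr against 14.2 and 11.3 at rest in experiment 1 (2.76 ± 0.13, adjusted p = 2.19e-08). With LPS the libraries read 47.1 and 43.3 against 8.26 and 7.98 (2.34 ± 0.09, adjusted p = 3.40e-09), and in Pbrm1 f/f cells 56.2 and 66.9 against 21.4 and 18.2 (1.59 ± 0.17, adjusted p = 4.60e-05). Every 4 hr library exceeded every resting one. The rise came after 1 hr: the 1 hr libraries read 9.04 and 9.57 TPM in experiment 1 and 8.32 and 8.58 in experiment 2. The change from 1 to 4 hr was 3.16 ± 0.13, adjusted p = 2.10e-08 in experiment 1 and 2.29 ± 0.09, adjusted p = 6.37e-09 in experiment 2.

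Of the 40 members, 6 were lower at 4 hr in all 3 experiments: Heatr1, Nob1, Wdr12, Polr1b, the large-subunit factor Rrp1b and Nat10, which acetylates cytidines of ribosomal RNA. Polr1b, the second core subunit of Pol I, read 0.270 TPM at 4 hr against 4.34 and 3.60 at rest in experiment 1 (-1.96 ± 0.21, adjusted p = 9.08e-06), 0.662 and 0.752 against 3.55 and 3.33 in experiment 2 (-1.38 ± 0.13, adjusted p = 3.19e-06) and 0.410 and 0.632 against 3.29 and 4.08 in experiment 3 (-1.62 ± 0.17, adjusted p = 3.14e-05). All its 4 hr values were under 1 TPM, where log2(TPM + 1) understates a change. Wdr12 read 1.35 and 1.27 TPM against 7.69 and 6.84 with LPS (-1.83 ± 0.14, adjusted p = 8.17e-07), and Nat10 1.32 and 2.21 against 8.09 and 8.83 in Pbrm1 f/f cells (-1.79 ± 0.22, adjusted p = 9.39e-05). Polr1c, a subunit shared by polymerases I and III, was called lower in experiments 1 and 2. In experiment 1 it read 4.57 TPM at 4 hr against 23.3 and 24.9 (-2.17 ± 0.22, adjusted p = 8.05e-06).

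Ncl was higher at 4 hr in experiment 1 and lower in experiment 2. It read 98.0 TPM against 54.9 and 47.0 with lipid A in experiment 1 (0.94 ± 0.12, adjusted p = 3.53e-05) and 31.1 and 29.5 against 58.7 and 61.7 with LPS in experiment 2 (-0.97 ± 0.08, adjusted p = 1.23e-06). With lipid A in experiment 3 it read 40.8 and 48.6 against 69.4 and 63.7 (-0.57 ± 0.17 as deposited, 0.08 scaled, not called). The experiments differ in stimulus, genotype and batch, which cannot be told apart, and the experiment 1 value at 4 hr is 1 library. Ddx21, an RNA helicase of the nucleolus, rose at 4 hr of LPS to 19.6 and 15.6 TPM from 10.5 and 9.35 (0.76 ± 0.14, adjusted p = 3.85e-04).

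**Figure D2:**
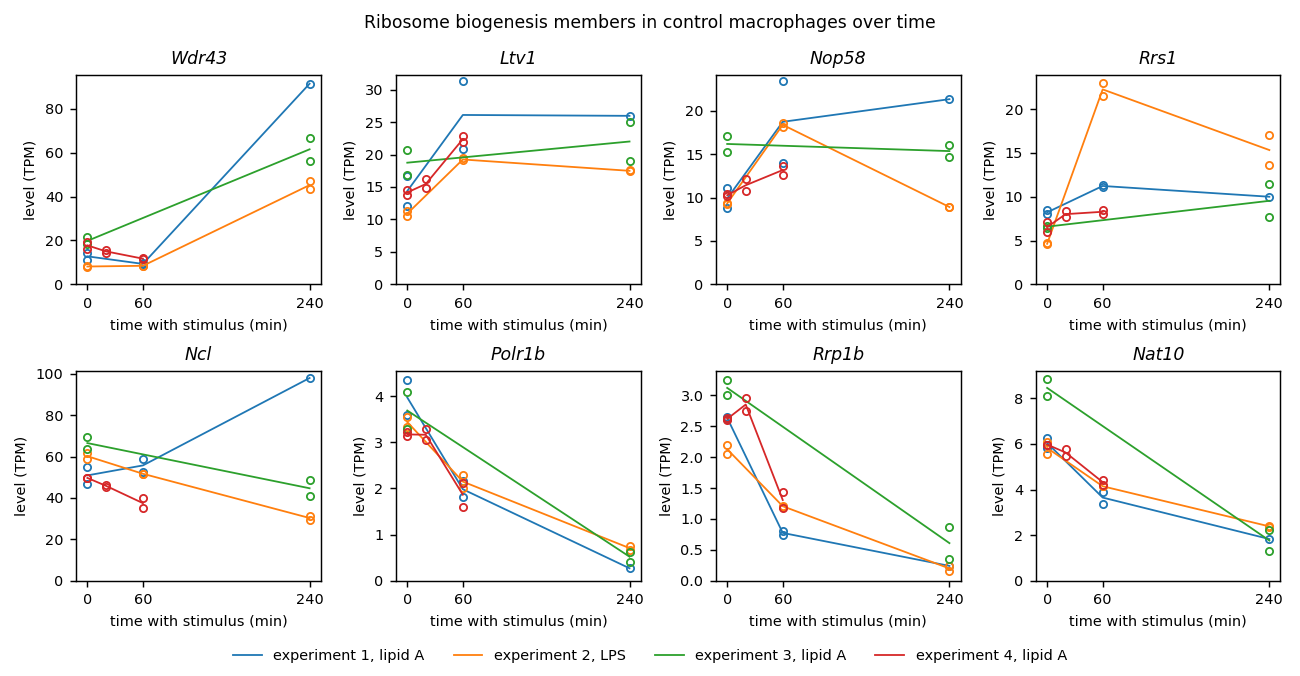
TPM of 8 members in control cells by minutes of stimulus; points are libraries, lines run through group means, and colours are the 4 experiments. Wdr43 stays low at 60 min and is high at 240 min in the 3 experiments with that time, Ltv1 and Nop58 are higher at 60 min than at rest, and Polr1b falls under 1 TPM at 240 min.

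Deletion of Arid1a, which encodes the DNA-binding subunit of the canonical BAF form of SWI/SNF, gave the broadest change of the group. At 1 hr of LPS, 34 of 40 members were higher in Arid1a-/- than in Arid1a f/f cells and 0 lower, against 18.4% and 16.8% of all tested genes. The members' median change was 1.08 (scaled 1.01), beside 0.03 over all genes. Limma voom on recovered reads called 36 higher and 0 lower. Summed over the members, the f/f libraries held 581.6 and 590.0 TPM at 1 hr and the -/- libraries 1133.6 and 1094.9. By role the calls were 5 of 6 for Pol I, 2 of 3 for box C/D, 3 of 4 for box H/ACA, 5 of 6 for nucleolar chaperones and regulators, 10 of 11 for the small and 9 of 10 for the large subunit. The 6 members not called were Polr1c, Fbl, Nop10, Npm3, Heatr1 and Wdr12. Neutrophil markers summed to 30.0 to 36.7 TPM in the -/- libraries and 21.6 to 22.0 in the f/f libraries at this time, and their part in the result was not tested.

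The largest rise was that of Nolc1, at 28.7 and 26.0 TPM in Arid1a-/- against 6.03 and 4.95 in f/f libraries, 4.98-fold (2.13 ± 0.14, adjusted p = 4.82e-06). Gnl3, the nucleolar GTPase nucleostemin, which shares 4.1% of its exonic bases with Pbrm1 and small RNA genes, read 37.8 and 33.1 against 8.58 and 8.69 (1.92 ± 0.18, adjusted p = 3.33e-05), and Rrp12 9.64 and 10.9 against 2.33 and 2.34 (1.76 ± 0.14, adjusted p = 1.17e-05). In these 3 genes each -/- library was over 3 times any f/f library. Dkc1, the pseudouridine synthase dyskerin of H/ACA particles, read 9.06 and 11.6 TPM against 2.63 and 2.66 (1.63 ± 0.15, adjusted p = 2.52e-05). Nop58 read 58.1 and 55.2 against 18.6 and 18.2 (1.57 ± 0.10, adjusted p = 3.14e-06), and Polr1a, the catalytic subunit of Pol I, 10.2 and 13.0 against 4.41 and 3.69 (1.31 ± 0.14, adjusted p = 6.32e-05). The groups did not overlap in any of the 6.

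**Figure D3:**
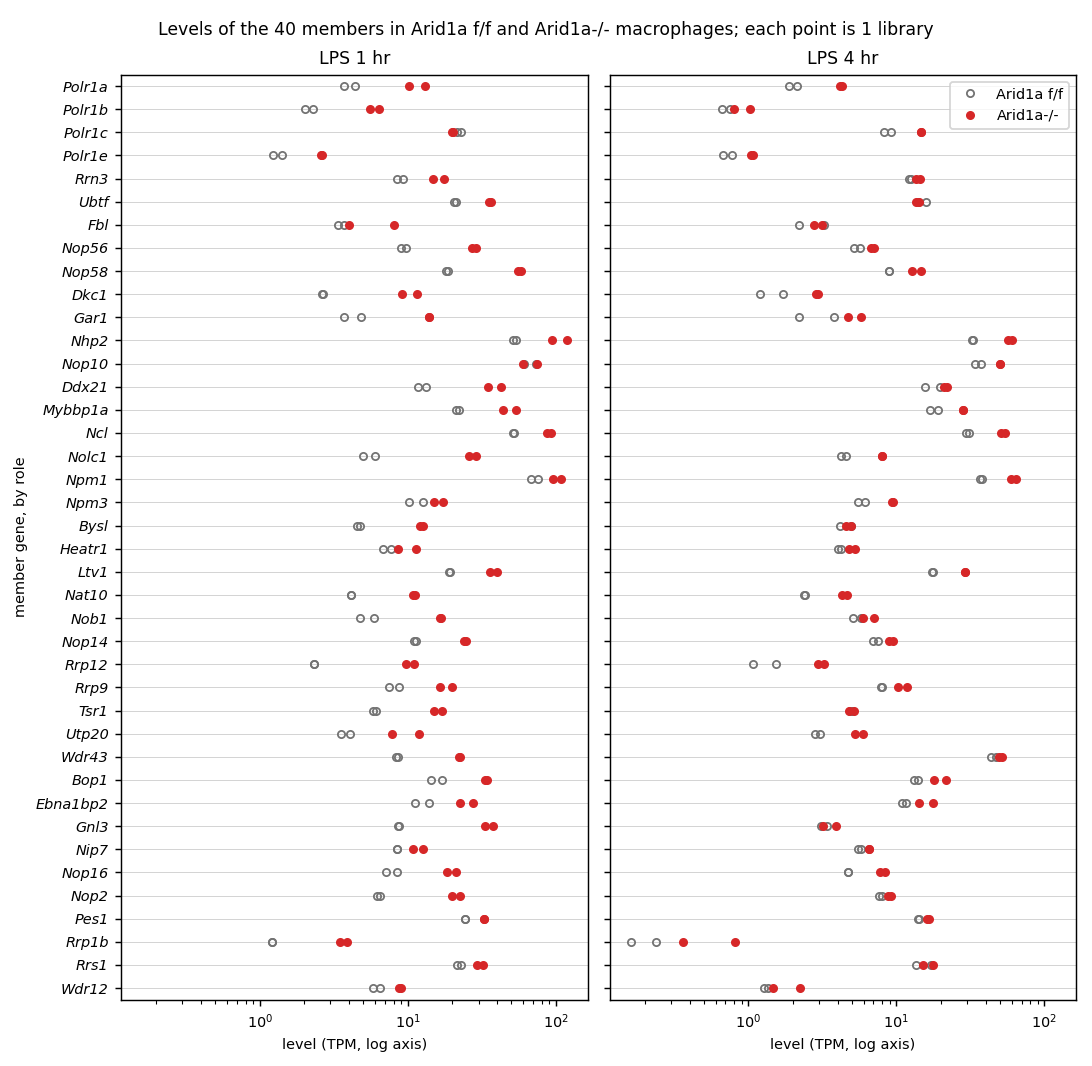
TPM (log axis) of the 40 members in Arid1a f/f (open grey) and Arid1a-/- (red) libraries at 1 hr and 4 hr of LPS. At 1 hr the red points lie above the grey ones in the 34 called members, and at 4 hr the gap is called in 18.

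At 4 hr of LPS, 18 members were higher and 0 lower in Arid1a-/- cells, against 14.1% and 10.8% of all genes, with a members' median of 0.41. The summed level was 420.8 and 425.3 TPM in f/f and 593.4 and 613.2 in -/- libraries. All 4 H/ACA proteins and 5 of 6 nucleolar chaperones and regulators were higher, against 2 of 10 large-subunit factors. Rrp12 read 2.94 and 3.24 TPM against 1.08 and 1.54 (0.83 ± 0.14, adjusted p = 0.00145), Nhp2 57.0 and 60.2 against 32.2 and 32.9 (0.83 ± 0.11, adjusted p = 4.52e-04) and Ncl 54.0 and 50.8 against 31.1 and 29.5 (0.77 ± 0.08, adjusted p = 9.13e-05). Polr1a read 4.31 and 4.17 against 1.89 and 2.13 (0.80 ± 0.14, adjusted p = 0.0019). Again no -/- library overlapped the f/f libraries in these genes. Of the 18, 15 were called higher at both times: Bop1, Dkc1, Gar1, Ltv1, Mybbp1a, Nat10, Ncl, Nhp2, Nolc1, Nop16, Nop58, Npm1, Polr1a, Rrp12 and Utp20. With 1 library left out, 12 to 14 members were called. Neutrophil markers summed to 29.17 and 36.21 TPM in the -/- and 23.86 and 15.33 in the f/f libraries, and their part was not tested.

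The difference between the times was tested directly. The Arid1a-/- effect was smaller at 4 than at 1 hr in 19 members and larger in 1, against 8.09% and 8.08% of all genes. The 1 hr libraries were listed apart from the 4 hr ones, so time and a possible batch cannot be told apart here. Gnl3 lost most: its -/- and f/f libraries read 3.21 and 3.88 and 3.11 and 3.39 TPM at 4 hr, where they overlapped, and the difference of the effects was -1.82 ± 0.26, adjusted p = 0.00149. For Nolc1 the 4 hr values were 8.01 and 7.997 against 4.23 and 4.53 TPM (-1.39 ± 0.20, adjusted p = 0.00161). For Tsr1, a GTPase-like factor of late small-subunit assembly that shares 32.3% of its exonic bases with Srr, they were 5.18 and 4.81 against 4.97 and 4.84 after 15.0 and 17.1 against 5.85 and 6.13 at 1 hr (-1.26 ± 0.15, adjusted p = 7.39e-04). The 1 member with a larger effect at 4 hr was Polr1c, which read 20.1 and 19.8 against 22.9 and 21.4 TPM at 1 hr and 14.7 and 14.8 against 8.25 and 9.26 at 4 hr (0.84 ± 0.16, adjusted p = 0.00678).

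Deletion of Pbrm1, a bromodomain subunit of the PBAF form of SWI/SNF, gave no called member at 4 hr of lipid A with limma, against 0% of all genes higher and 0.00905% lower. Of the 40, 2 had an unadjusted p under 0.05, and limma voom called 0. In simulated data for this comparison, 56 of 100 true 2-fold and 90 of 100 true 4-fold changes were called. For Arid1a-/- at 1 hr of LPS the simulation gave 93 and 99, so the 2 deletions were not tested with equal power. Both simulations drew the changed genes only above a minimum level that some members did not reach. Polr1b, for example, read 0.410 and 0.632 TPM in Pbrm1 f/f libraries at 4 hr. For such members the power was not measured. The changes ranged from -0.54 to 0.23 with a median of -0.12, and 1 member was called lower when replicate 1 of the 4 hr control was left out. Wdr43, for example, read 65.1 and 54.1 TPM in Pbrm1-/- and 56.2 and 66.9 in f/f libraries, which overlapped. Neutrophil markers summed to 252.86 and 271.19 TPM in Pbrm1-/- and 334.26 and 410.67 in f/f libraries at this time.

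At 20 min of lipid A, no member was called with ACBI1 (background 0.0866% higher and 0.0606% lower), BRM014 (0.0606% and 0.329%) or BRDK98 (0.502% and 0.849%) by limma or by limma voom. At an unadjusted p under 0.05 there were 2, 4 and 9 members. A p that misses the threshold does not show equal levels.

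By 60 min the compounds had parted. ACBI1 lowered 15 of 40 members and raised 1, against 14.5% and 11.6% of all genes. BRM014 raised 17 and lowered 2, against 16.9% and 13.5%. BRDK98 raised 13 and lowered 0, against 6.04% and 5.56%. The members' median changes were -0.37, 0.28 and 0.23, beside -0.14, 0.04 and 0.08 over all genes. Summed levels were 466.4 and 487.5 TPM in control, 377.2 and 373.4 in ACBI1, 737.7 and 762.4 in BRM014 and 692.8 and 696.7 in BRDK98 libraries. These comparisons share the control libraries. The ACBI1 count was 5 without control replicate 2, 7 without ACBI1 replicate 1 and 10 without ACBI1 replicate 2. Neutrophil markers summed to 222.77 and 235.1 TPM in the ACBI1 libraries and 355.27 and 369.41 in controls, and their part in the result was not tested.

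Nop2, an RNA methyltransferase of the large subunit, had the largest change of any member in any comparison. With BRM014 at 60 min it read 122 and 151 TPM against 7.81 and 8.30 in control, 6.25 and 6.91 in ACBI1 and 12.5 and 12.8 in BRDK98 libraries, 17.0-fold over control (3.92 ± 0.09, adjusted p = 3.32e-12). At 20 min BRM014 libraries read 11.8 and 11.98 and controls 10.9 and 10.7 TPM. Nop56, the partner of Nop58 in box C/D particles, read 43.0 and 54.9 TPM with BRM014 against 7.85 and 9.11 in control libraries (2.39 ± 0.12, adjusted p = 4.28e-09); 8.12% of its exonic bases are shared with Idh3b and small RNA genes. Both genes stood far above every other 60 min library in the BRM014 pair alone. The other BRM014 rises were smaller, such as Rrp9, a box C/D-associated small-subunit factor (11.8 and 11.3 against 6.34 and 6.92 TPM, 0.72 ± 0.12, adjusted p = 4.60e-04). The BRM014 libraries differed in Arid1a, at 7.66 and 19.0 TPM, but leaving out either gave 16 or more called members.

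BRDK98 raised other members most at 60 min. Nop58 read 40.6 and 45.1 TPM against 12.6 and 13.7 (1.63 ± 0.09, adjusted p = 1.72e-08), Nhp2 129 and 119 against 41.7 and 41.2 (1.56 ± 0.12, adjusted p = 3.62e-07) and Nop14, an early small-subunit factor, 23.8 and 24.7 against 9.38 and 9.15 (1.30 ± 0.10, adjusted p = 3.62e-07). BRDK98 libraries stood above all other 60 min libraries in each. Gnl3, Ncl and Nop14 were called with all 3 compounds. Gnl3 read 19.8 and 19.8 TPM with BRDK98 (1.03 ± 0.13, adjusted p = 5.03e-05), 14.2 and 14.1 with BRM014 (0.57 ± 0.13), 4.22 and 4.69 with ACBI1 (-0.90 ± 0.13, adjusted p = 1.01e-04) and 8.60 and 9.80 in controls. The 4 groups did not overlap.

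ACBI1's falls at 60 min spanned most roles: 2 of 6 Pol I, 0 of 3 box C/D, 1 of 4 H/ACA, 4 of 6 nucleolar, 5 of 11 small-subunit and 3 of 10 large-subunit members. Nhp2 read 24.6 and 22.7 TPM with ACBI1 against 41.7 and 41.2 (-0.78 ± 0.12, adjusted p = 1.67e-04), Npm3, a relative of nucleophosmin, 4.30 and 4.89 against 8.80 and 8.44 (-0.78 ± 0.10, adjusted p = 3.38e-05) and Heatr1 3.45 and 3.31 against 5.36 and 6.64 (-0.67 ± 0.12, adjusted p = 6.22e-04). ACBI1 libraries were the lower in all 3, with no overlap. Wdr43 went the other way, at 16.1 and 16.7 against 11.9 and 11.49 TPM (0.45 ± 0.10, adjusted p = 0.0025).

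Tested against each other at 60 min, in 3 pairs, the compounds differed widely. BRM014 exceeded ACBI1 in 26 members and was under it in 2, against 29.1% and 19.6% of all genes. BRDK98 exceeded ACBI1 in 25 and was under it in 1, against 21.5% and 14.3%. BRDK98 exceeded BRM014 in 7 and was under it in 10, against 14.5% and 12.4%; 11 were called without BRDK98 replicate 1. The last pair split sharply by gene: BRDK98 minus BRM014 was -3.33 ± 0.09, adjusted p = 1.82e-11 for Nop2 and -1.76 ± 0.12, adjusted p = 1.08e-07 for Nop56, and 1.76 ± 0.09, adjusted p = 7.80e-09 for Nop58 and 1.70 ± 0.12, adjusted p = 1.23e-07 for Nhp2. Nop56 and Nop58, partners in the same particle, were thus apart in opposite directions.

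The change in each effect between 20 and 60 min was tested too. For ACBI1, 1 member had a higher change and 8 a lower one at 60 than at 20 min, against 9.37% and 9.59% of all genes, and 5 were called without replicate 2 of the 20 min control, 20 min ACBI1 or 60 min control. For BRM014, 12 had a higher and 0 a lower change, against 6.94% and 6.42%, with 7 called without 60 min control replicate 1. For BRDK98, 9 had a higher and 0 a lower change, against 3.56% and 3.09%, with 5 called without replicate 1 of the 20 or 60 min control. Nop2 changed most with BRM014 (3.79 ± 0.13, adjusted p = 4.09e-10), Nop58 with BRDK98 (1.77 ± 0.13, adjusted p = 7.09e-07) and Gnl3 with ACBI1 (-1.05 ± 0.18, adjusted p = 8.42e-04).

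**Figure D4:**
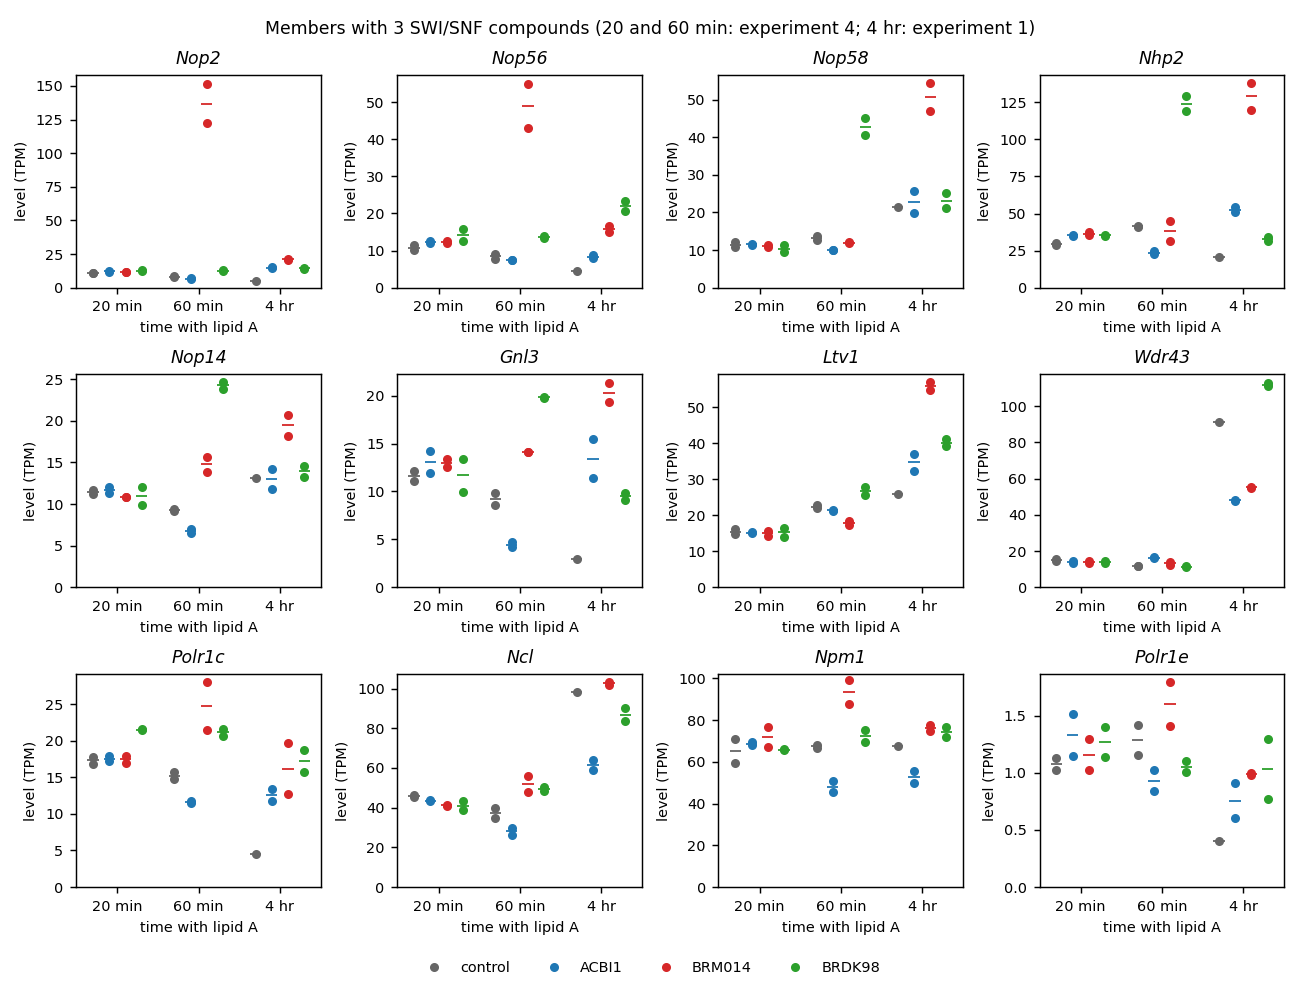
TPM of 12 members in control, ACBI1, BRM014 and BRDK98 libraries at 20 and 60 min (experiment 4) and 4 hr (experiment 1) of lipid A; points are libraries and bars are means. Nop2 and Nop56 peak with BRM014, and Nop58, Nhp2 and Nop14 with BRDK98, at 60 min, while at 20 min the 4 groups lie close together.

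At 4 hr of lipid A, in experiment 1, all 3 compounds raised more members than they lowered, as they did among all tested genes. ACBI1 raised 11 and lowered 3, against 22.3% and 13.5% of all genes (deposited alone 15 and 3, scaled alone 11 and 6). BRM014 raised 22 and lowered 1, against 29.3% and 16.4% (deposited alone 33 and 1, scaled alone 22 and 4). BRDK98 raised 17 and lowered 1, against 24.7% and 12.4% (deposited alone 26 and 1, scaled alone 17 and 5). All 3 rest on 1 control library, at a summed 524.1 TPM, against 578.5 and 555.6 with ACBI1, 897.1 and 877.1 with BRM014 and 750.7 and 745.6 with BRDK98. Medians were 0.39, 0.93 and 0.79 for the members and 0.25, 0.43 and 0.46 for all genes, in that order. Neutrophil markers summed to 4.44 and 4.88 TPM with BRDK98, 17.9 in the control and 31.9 to 41.3 with BRM014. The 5 dendritic cell markers summed to 9.4 and 9.68 TPM with BRM014 against 2.18 in the control, and to 0.26 to 3.99 in all other libraries; the part of either list was not tested.

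Nhp2 read 138 and 120.2 TPM with BRM014, 50.9 and 54.5 with ACBI1 and 34.1 and 31.4 with BRDK98 against 20.8 in the control (2.57 ± 0.12, adjusted p = 1.08e-07 for BRM014). Gnl3 read 19.3 and 21.3, 15.4 and 11.4 and 9.88 and 9.15 against 2.98 in the same order, and each change was called (2.42 ± 0.25, adjusted p = 2.31e-05 for BRM014, 1.84 ± 0.25, adjusted p = 2.74e-04 for ACBI1). Nop56 was highest with BRDK98, at 23.4 and 20.5 against 4.39 TPM (2.09 ± 0.19, adjusted p = 1.29e-05), the BRM014 libraries reading 15.1 and 16.5. Nop58 read 54.4 and 46.9 with BRM014 (1.21 ± 0.28, adjusted p = 0.00486), 25.1 and 21.2 with BRDK98 and 25.8 and 19.7 with ACBI1 against 21.3 TPM. For Nhp2, Nop56 and Nop58 the compound with the highest values at 4 hr was thus not the one at 60 min; that reversal spans 2 experiments and was not tested. Polr1c read 15.8 and 18.7 with BRDK98, 12.6 and 19.7 with BRM014 and 13.5 and 11.8 with ACBI1 against 4.57 in the control (1.71 ± 0.22, adjusted p = 1.28e-04 for BRDK98). Each of its 6 treated libraries lay under the resting values of 23.3 and 24.9.

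Wdr43 and Ncl, which lipid A raised in experiment 1, were lower with some compounds. Wdr43 read 47.5 and 48.4 TPM with ACBI1 (-0.92 ± 0.13, adjusted p = 2.58e-04) and 55.5 and 55.0 with BRM014 (-0.72 ± 0.13, adjusted p = 6.18e-04), both under the control's 91.4 and above the resting libraries, and 111 and 112 with BRDK98, not called. Ncl read 63.8 and 58.7 with ACBI1 against 98.0 (-0.67 ± 0.12, adjusted p = 0.00125), and 104 and 102 with BRM014. Ubtf, the factor that holds ribosomal DNA open, read 15.2 and 14.7 with BRDK98 against 20.6 (-0.44 ± 0.13, adjusted p = 0.0117), a call lost without BRDK98 replicate 2, where the change was -0.41, while ACBI1 libraries read 40.8 and 39.6.

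In the 3 direct pairs at 4 hr, which use 2 libraries a side, BRM014 exceeded ACBI1 in 21 members and was under it in 1, against 17.5% and 14.1% of all genes. The count of 22 became 13 and 9 without ACBI1 replicates 1 and 2, and 14 and 12 without BRM014 replicates 1 and 2. BRDK98 exceeded ACBI1 in 15 and was under it in 3, against 21.6% and 15.4%; 11 were called without ACBI1 replicate 2 or either BRDK98 library. BRDK98 exceeded BRM014 in 5 and was under it in 10, against 22.7% and 22.1%. Nhp2 differed most in the last pair (-1.94 ± 0.10, adjusted p = 1.26e-07), with Ubtf next among the falls (-1.20 ± 0.10, adjusted p = 5.30e-06) and Wdr43 the largest rise (1.00 ± 0.10, adjusted p = 2.03e-05).

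Beside the 40 members stood a second list of 82 listed ribosome biogenesis genes and the cytosolic ribosomal proteins. These lists too were chosen with earlier results of these data known. At 1 hr of LPS in Arid1a-/- cells, 60 of 82 other biogenesis genes were higher and 1 lower (median 0.65). Of 71 ribosomal protein genes 1 was higher and 1 lower (median 0.00), against 18.4% and 16.8% of all genes. Some ribosomal protein genes were near the floor, where log2(TPM + 1) understates a change. Rpl3, for example, read 1.04 and 0.758 TPM in -/- and 0.764 and 0.619 in f/f libraries. Others were not, such as Rpl32 at 469 and 389 against 428 and 416. At 4 hr the counts were 10 and 1 of the biogenesis genes and 0 and 4 of the ribosomal proteins, against 14.1% and 10.8% of all genes, so that the share of the second list called higher was under that of all genes. With ACBI1 at 60 min 1 biogenesis gene was higher and 15 lower, with BRM014 27 and 1, and with BRDK98 10 and 0. The ribosomal proteins had 0 and 5, 19 and 0, and 2 and 0. Of all genes, 11.6%, 16.9% and 6.04% were higher and 14.5%, 13.5% and 5.56% lower in these 3 comparisons. At 4 hr of lipid A, 30 biogenesis genes were higher with ACBI1, 51 with BRM014 and 46 with BRDK98, with 7, 7 and 3 lower, against 22.3%, 29.3% and 24.7% of all genes higher and 13.5%, 16.4% and 12.4% lower.

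**Figure D5:**
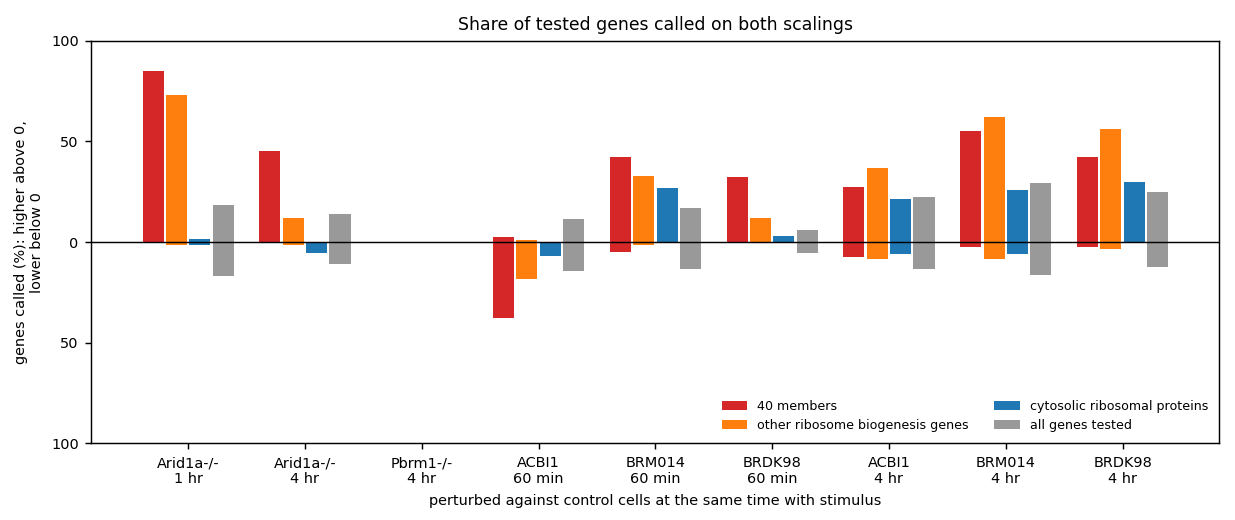
Percent of genes called higher (above 0) and lower (below 0) in 9 perturbation comparisons, for the 40 members, the other ribosome biogenesis genes, the cytosolic ribosomal proteins and all tested genes. At 1 hr in Arid1a-/- cells the bars of both biogenesis lists stand well above the bar of all genes (18.4%), and ribosomal proteins show 1 gene in each direction. Some ribosomal protein genes were near 1 TPM or lower, where changes are understated.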

How the data were processed

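Libraries were stranded polyadenylated RNA, read as 50 bp single ends, and the submitters' processing notes name STAR 2.5.3a, HOMER and the build mm10 (GRCm38). The authors deposited TPM per gene, counted on both strands per the file headers although the kit marks strand, so overlapping and antisense genes cannot be told apart: 19 of 40 members share exonic bases with another gene, 1 of them (Tsr1) over 20%. The authors' deposited tables also hold their own log2 fold changes and adjusted p-values, with DESeq2 named in the submitters' processing notes. Of the deposited columns, 1 has no sample of its own and was left out.

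From the deposited TPM, log2(TPM + 1) was fitted with limma 3.58.1 in R 4.3.3 (trend and robust), 1 fit per experiment over all its groups, for genes at 1 TPM or more in 2 or more libraries; 32 comparisons were made. Whole reads were recovered from 100.0% of values within 0.1 read for limma voom. The same script was tested on simulated data. The named members were, in each comparison, those with the largest called increase and decrease in each of 6 roles, and in stimulus series 6 reference members (Polr1b, Fbl, Dkc1, Ncl, Bysl, Nop2); values of a named member in other groups were added after they were seen. The members and lists were chosen with earlier results of these data known. Alternatives were either scaling alone, a pseudocount of 0.1, no filter, no trend, voom, a minimum log2 change of 0.5, a replicate block, and leaving out each library. Precision rests on 2 libraries a group and 7015079 to 27527085 exonic reads each.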

Additional observations from a re-analysis of the deposited data

Results flagged for a closer look

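In 4 cases the effect of a perturbation on the members differed between times of stimulus, tested by a contrast of the effects themselves. The Arid1a-/- effect differed between 1 and 4 hr of LPS in 20 members, with a smaller rise at 4 hr in 19. Here time cannot be told apart from a possible batch. Between 20 and 60 min of lipid A the effect differed in 9 members for ACBI1, in 12 for BRM014 and in 9 for BRDK98, with Nop2 and Nop56 first for BRM014 and Nop58, Nop14 and Nhp2 first for BRDK98. Each compound's 2 effects use separate controls.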

How the results depend on the processing

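None of the 203 named changes reversed under any alternative. Leaving out 1 library kept 710 of 832 calls of named members; voom lost 12 of 203, no filter 10, the minimum of 0.5 lost 24, the pseudocount 3, and leaving out trend 2. The 4 hr control of experiment 1 could not be left out, being a single library. Counts of members called changed by over 1.5 times as follows. On TPM as deposited alone, they were 24, 32 and 25 in experiment 1 for 1 hr, 4 hr and 4 against 1 hr of lipid A, 16, 31 and 27 for LPS in experiment 2, 31 at 4 hr in Pbrm1 f/f cells, 26 and 27 for 60 against 0 and 20 min in experiment 4, 27 for ACBI1 at 60 min and 16 for its difference. Voom gave 15 at 1 hr in experiment 1 and 17 for 60 against 20 min. A minimum log2 change of 0.5 gave 4 for ACBI1, 11 for BRM014, 8 for BRDK98 and 9 for BRDK98 against BRM014 at 60 min.

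Leaving out each library gave 9 to 14 members for BRM014 against ACBI1 and 11 to 13 for BRDK98 against ACBI1 at 4 hr, 6 to 9 for 1 hr of LPS, 6 to 18 for 4 hr in Pbrm1 f/f cells, 0 to 1 for Pbrm1-/-, 6 to 9 and 7 to 9 for 60 against 0 and 20 min, 5 to 11 for ACBI1 and 11 to 23 for BRDK98 against BRM014 at 60 min. For the differences between times it gave 5 to 9 for ACBI1, 7 to 18 for BRM014 and 5 to 8 for BRDK98, and for Arid1a-/- 30 to 35 at 1 hr, 12 to 14 at 4 hr and 14 to 25 for the difference.

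With the replicate number as a block, the Arid1a-/- counts were 35 at 1 hr, 17 at 4 hr and 17 for the difference, all 32 counts stayed within 1.5 times, and 2 named calls were lost (Npm3 for BRDK98 against ACBI1 at 4 hr, Dkc1 at 4 hr of LPS). Differences between the 2 libraries of a group were correlated across groups at -0.24 to 0.24 over the experiments. In experiments 1 to 4 in turn, 1 of 10, 1 of 10, 2 of 3 and 11 of 36 group pairs exceeded 0.1. The labels do not say whether the numbers pair the samples, and these correlations cannot settle it. With 2 libraries a group and 3 to 9 residual degrees of freedom, small changes may go undetected, and log2(TPM + 1) understates those of members under 1 TPM.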

Other observations

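Myc, which encodes a regulator of many of these genes, rose early with stimulus, and its values in the perturbed cells are set here beside the members' counts. In Arid1a f/f cells it read 0.781 and 0.211 TPM at rest, 71.9 and 69.9 at 1 hr and 4.30 and 5.46 at 4 hr of LPS. In Arid1a-/- cells it read 53.9 and 60.1 at 1 hr (-0.31 ± 0.19, adjusted p = 0.227, not called), when 34 members were higher, and 1.77 and 1.16 at 4 hr (-1.26 ± 0.19, adjusted p = 9.01e-04, called lower). With BRM014 at 60 min of lipid A it read 4.80 and 5.01 against 15.4 and 18.5 in controls (-1.60 ± 0.14, adjusted p = 1.59e-06, called lower), when 17 members were higher. With BRDK98 it read 21.6 and 16.9 (0.16 ± 0.14, adjusted p = 0.552, not called) and with ACBI1 9.92 and 8.73 (-0.80 ± 0.14, adjusted p = 7.83e-04, called lower). Of 10 tested genes of the MYC network list, 0 were higher and 3 lower in Arid1a-/- cells at 1 hr of LPS, against 18.4% and 16.8% of all genes. That list mixes Myc with its relatives, so its count is not a measure of MYC activity. Mxd4 read 9.58 and 14.6 TPM against 65.7 and 69.6, Mxd1 20.6 and 26.9 against 46.5 and 47.1. Mxi1 read 12.9 and 12.5 against 19.0 and 20.3, and Max 50.7 and 48.5 against 41.9 and 40.1. These are RNA values, and the part of Myc in the members' changes was not tested.

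In the authors' deposited table, 30 of 40 members were higher and 0 lower in Arid1a-/- cells at 1 hr (median log2 1.13), against 5.41% and 5.24% of all listed genes. The authors' deposited table had 12 higher and 0 lower at 4 hr (5.17% and 5.7% of all listed genes) and 0 in either direction for Pbrm1-/- (0.00408% and 0.0408%). For 60 min the authors' deposited table had 2 higher and 8 lower with ACBI1 (7.99% and 5.09%), 3 and 0 with BRM014 (1.75% and 2.96%) and 9 and 0 with BRDK98 (2.38% and 3.43%). The authors' deposited table for 4 hr of lipid A listed 8 higher and 5 lower for ACBI1 (8.53% and 11.4%), 18 and 4 for BRM014 (10.3% and 13.7%) and 15 and 7 for BRDK98 (9.72% and 13.7%). At 20 min the authors' deposited table listed 0 members in either direction for lipid A and for each compound, with 0.426% to 0.919% of all listed genes higher and 1.03% to 2.09% lower.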
